A study of Mus musculus with 12 samples.

Results

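Aminoacyl-tRNA synthetases are the enzymes that join each amino acid to its transfer RNA. The set described here holds 36 synthetase genes, 20 named for the cytosolic enzymes and 16 for the mitochondrial ones. They were taken by gene symbol from a list of synthetase names. All 36 had a row in each of 3 comparison tables, among 20884 genes that did so. They were measured by RNA-seq in mouse bone marrow-derived macrophages, cells grown for 7 days from the marrow of wild-type C57BL/6 males aged 8 to 16 weeks with 10% serum and with M-CSF, the macrophage growth factor, at 10 ng/mL until harvest. The groups were cells after 4 h of monophosphoryl lipid A (MPLA), cells after 24 h of MPLA, cells harvested 3 d after priming had ended (the labels do not give its length), and controls without MPLA, with 3 libraries each. MPLA is a low-toxicity derivative of bacterial lipid A that acts through Toll-like receptor 4.

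The name of each gene begins with the letter code of its amino acid (A alanine, C cysteine, D aspartate, E glutamate, F phenylalanine, G glycine, H histidine, I isoleucine, K lysine, L leucine, M methionine, N asparagine, P proline, Q glutamine, R arginine, S serine, T threonine, V valine, W tryptophan, Y tyrosine), and the suffix "ars2" marks the mitochondrial enzyme. Most amino acids have a separate enzyme for each compartment. Gars and Kars each encode both forms, and Eprs encodes a fused enzyme for glutamate and proline. Several cytosolic synthetases sit in a multisynthetase complex with scaffold proteins, while the mitochondrial ones are nuclear-encoded, imported, and serve translation of the few proteins that mitochondrial DNA encodes. When amino acids run short, uncharged tRNA activates the kinase GCN2 (Eif2ak4), phosphorylated eIF2 raises translation of the transcription factor ATF4, and ATF4 is known to induce many cytosolic synthetase genes through C/EBP-ATF response elements.

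The promoters of the synthetases that carry the core of that element are shown because the element is the known link between ATF4 and these genes. All 5 were called higher after 24 h of MPLA by DESeq2, but edgeR did not call Iars (0.06) in the authors' deposited table. A rise at 24 h was not particular to them: Eprs, Farsa, Farsb, Kars, Mars and Sars, whose promoters lacked the core, also rose with DESeq2. RefSeq promoters of 300 bases on build GRCm38.p6 were found for 27 of the 36 members. Each runs from 250 bases before the start used there to 50 after it. That start can differ from the gene start in the GENCODE M21 annotation. For Aars the promoter begins at 111033592, inside the gene as GENCODE places it, from 111033144. No entry was used for Cars, Hars, Hars2, Lars, Nars, Pars2, Rars, Vars or Wars. The core TGATGNAA, searched on both strands and in capitals in each sequence below, was present in the promoters of 5 of these 27 members and in 3.97% of the 32851 promoters in the table. The promoter of Aars lies at chr8:111033592-111033891 on the plus strand, that of Gars at chr6:55037751-55038050 on the plus strand, that of Iars at chr13:49681880-49682179 on the plus strand, that of Tars at chr15:11399609-11399908 on the minus strand and that of Yars at chr4:129189653-129189952 on the plus strand.
Aars: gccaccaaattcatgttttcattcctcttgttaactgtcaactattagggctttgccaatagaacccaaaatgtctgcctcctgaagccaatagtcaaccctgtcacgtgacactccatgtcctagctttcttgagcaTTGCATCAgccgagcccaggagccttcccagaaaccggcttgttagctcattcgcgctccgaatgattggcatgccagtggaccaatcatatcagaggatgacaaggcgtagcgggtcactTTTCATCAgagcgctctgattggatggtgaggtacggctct
Gars: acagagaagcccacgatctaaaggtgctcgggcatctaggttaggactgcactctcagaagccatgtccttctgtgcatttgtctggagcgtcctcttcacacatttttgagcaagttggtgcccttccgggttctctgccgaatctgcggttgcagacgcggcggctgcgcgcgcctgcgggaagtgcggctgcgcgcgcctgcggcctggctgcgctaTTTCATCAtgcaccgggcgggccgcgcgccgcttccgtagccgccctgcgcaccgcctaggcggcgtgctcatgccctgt
Iars: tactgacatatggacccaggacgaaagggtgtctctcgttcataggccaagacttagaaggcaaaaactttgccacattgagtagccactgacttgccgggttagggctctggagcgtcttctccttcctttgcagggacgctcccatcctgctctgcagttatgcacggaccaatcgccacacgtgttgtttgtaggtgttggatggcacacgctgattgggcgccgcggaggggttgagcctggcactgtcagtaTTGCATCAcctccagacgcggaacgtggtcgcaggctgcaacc
Tars: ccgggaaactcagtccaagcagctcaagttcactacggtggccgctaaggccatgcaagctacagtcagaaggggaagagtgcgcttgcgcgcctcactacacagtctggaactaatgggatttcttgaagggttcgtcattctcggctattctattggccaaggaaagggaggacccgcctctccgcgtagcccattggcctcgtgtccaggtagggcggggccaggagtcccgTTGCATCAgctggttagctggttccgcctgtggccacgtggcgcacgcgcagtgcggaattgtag
Yars: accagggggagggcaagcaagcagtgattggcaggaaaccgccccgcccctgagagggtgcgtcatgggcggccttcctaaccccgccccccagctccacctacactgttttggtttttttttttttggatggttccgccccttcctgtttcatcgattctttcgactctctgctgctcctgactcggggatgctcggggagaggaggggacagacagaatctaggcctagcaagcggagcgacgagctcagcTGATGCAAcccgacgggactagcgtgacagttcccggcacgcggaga
Counted from the start used for each promoter, the match begins at -112 in Aars, which has a further match at 10. It begins at -30 in Gars, at 8 in Iars, at -15 in Tars and at 4 in Yars. These are matches of letters and not measured binding sites. The core of the interferon-stimulated response element (GAAA, any 2 bases, GAAA, both strands) was found in 1 of the 27 members, Qars, which lacks the first core, and in 3.44% of all promoters.

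Values below are log2 fold changes of MPLA over control by DESeq2, as the authors' deposited tables hold them, except where edgeR is named, and a gene was called when its adjusted p-value there was under 0.05. These tables give values per comparison and none per library, so neither levels nor the spread between libraries can be shown. Whether the 3 libraries of a group are from different animals or cultures is not in the labels, so p-values cover the spread among these libraries, possibly technical, and no more. If the DESeq2 p-values come from a Wald test, which the sources used here do not state, the authors' deposited tables imply standard errors of 0.03 to 0.10 on the log2 scale for cytosolic members and 0.05 to 0.32 for mitochondrial ones. The highest, 0.32, was that of Lars2 at 3 d. None of the 36 members was listed at 0 in any group. Of 8 macrophage marker symbols 7 had rows and none of these was listed at 0, but their changes differed. At 24 h Fcgr1 rose 12.98-fold in the authors' deposited table. On the log2 scale Adgre1 (2.15) and Itgam (0.31) also rose at 24 h there. Mertk (-1.69), Csf1r (-1.52), Lyz2 (-1.50) and Cd68 (-0.66) fell at 24 h on the log2 scale. Of 7 markers of T and NK cells, 1 had a row at 4 h and at 24 h and 2 at 3 d. Cd4 was lower at 4 h (-0.91) and 24 h (-1.35) and higher at 3 d (1.01) in the authors' deposited tables. Cd3e, the other with a row at 3 d, was not tested by DESeq2. Of 7 neutrophil and progenitor markers, 6 had a row at 4 h and 5 at 24 h and at 3 d. Camp among them rose at 24 h (3.49) and 3 d (1.43), and no other was called. Of 6 markers of B cells, 5 had a row at 4 h, 4 at 24 h and 5 at 3 d. Of these Ighm fell at all 3 times (-1.75, -8.98 and -6.42) in the authors' deposited tables, while Cd79b had -0.58 without a call at 4 h, -1.54 with a call at 24 h and 0.47 with a call at 3 d. Cd79a, Ms4a1 and Pax5 were not called at any time in the authors' deposited tables. Of 5 stromal and endothelial markers, 5 had a row at 4 h and at 24 h and 4 at 3 d. Pecam1, an endothelial marker that other cells also express, rose at all 3 times (2.05, 2.96 and 1.87) in the authors' deposited tables. Cdh5 rose at 4 h (3.07) and 24 h (2.10) there, and Pdgfra, listed at 0 in the controls, rose at 4 h (4.34). Col1a1 and Col1a2 had no DESeq2 call. With edgeR Col1a2 was lower at 4 h (-2.81) and 24 h (-2.56), and Col1a1 at 24 h (-2.94). Of 4 dendritic cell markers, Xcr1 rose at 4 h (3.93) and 24 h (3.08), while Zbtb46 rose at 4 h (1.19) and fell at 24 h (-1.50). Neither was called at 3 d, and Flt3 and Siglech had no DESeq2 call. Siglech was lower with edgeR at 24 h (-3.80) and 3 d (-2.99), and Zbtb46 was not called by edgeR at 4 h. Of 4 mast cell and basophil markers, 1 had a row, the mast cell gene Cpa3. The authors' deposited table had Cpa3 lower at 24 h (-3.97), where it was listed at 0 in the MPLA group. The part of other cell types in the synthetase results was not tested. In RNA from whole cultures, fewer cells of a type and less RNA per cell cannot be told apart.

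**Figure D1:**
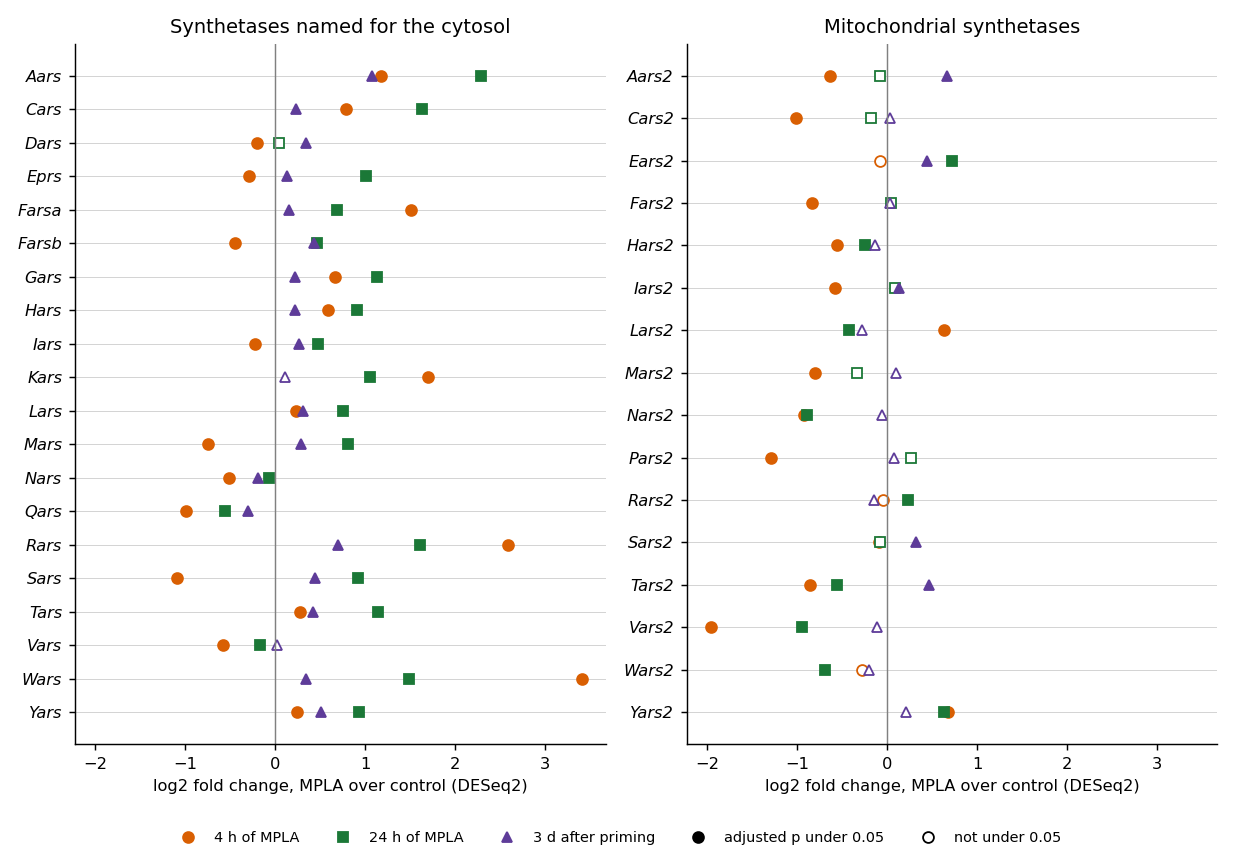
Log2 fold change of MPLA over control (DESeq2, horizontal axis) for the 20 cytosolic synthetases (left) and the 16 mitochondrial ones (right). Circles are 4 h, squares 24 h and triangles 3 d after priming, filled where the adjusted p was under 0.05; Wars (3.40) and Rars (2.59) lie farthest right at 4 h and Vars2 (-1.96) farthest left.

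After 4 h of MPLA the synthetases moved in both directions. Wars and Rars rose most, Vars2 and Pars2 fell most, and the mitochondrial enzymes were lower as a rule. In the authors' deposited table for 4 h, 13 of the 36 members (36.1%) rose, where 31.8% of all tested genes did, and 19 (52.8%) fell, where 31.0% of all tested genes did. The authors' deposited table had 11 of the 20 cytosolic members higher and 9 lower, at a median of 0.23. It had 2 of the 16 mitochondrial members higher, 10 lower and 4 not called, at a median of -0.61, while the median of all tested genes was -0.04.

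Wars, the tryptophan enzyme, which interferon gamma is known to induce in human cells (ENSMUSG00000021266 on chromosome 12, 108860030 to 108894174, GRCm38), stood 10.6-fold above the controls at 4 h (log2 3.40) in the authors' deposited table, where its DESeq2 adjusted p lies below the smallest number stored. The authors' deposited table gave a 6.02-fold rise (log2 2.59) of Rars, the arginine enzyme on chromosome 11 (35808381 to 35834506). Kars, for lysine, rose by 1.70 (DESeq2 adjusted p = 7.72e-280), Farsa by 1.51, Aars by 1.17 and Cars by 0.79 in the authors' deposited table. Both Wars and Rars stood above the 90th percentile of all tested genes, at the 94.8th and 91.5th in the authors' deposited table. The remaining cytosolic members that rose were Gars (0.66), Hars (0.59), Tars (0.28), Yars (0.24) and Lars (0.23) in the authors' deposited table.

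The cytosolic members that fell at 4 h were Sars (-1.09), Qars (-0.99), Mars (-0.75), Vars (-0.58), Nars (-0.52), Farsb (-0.45), Eprs (-0.29), Iars (-0.23) and Dars (-0.20) in the authors' deposited table. Farsa and Farsb encode the subunits of a single enzyme, the cytosolic phenylalanine synthetase, and their changes at 4 h had opposite signs, 1.51 and -0.45, in the authors' deposited table. The fall of Sars, for serine, was 2.13-fold, with a DESeq2 adjusted p of 7.16e-60 in the authors' deposited table.

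Among mitochondrial members Vars2, for valine, was 3.89-fold lower at 4 h (-1.96, DESeq2 adjusted p = 1.44e-27) in the authors' deposited table. Pars2 (-1.29) and Cars2 (-1.01) were the other mitochondrial genes at least 2-fold lower in the authors' deposited table. Nars2, Tars2, Fars2, Mars2, Aars2, Iars2 and Hars2 fell by between 0.55 and 0.93 on the log2 scale there. Yars2 (0.68) and Lars2 (0.63) rose in the authors' deposited table. Wars2 (-0.27), Sars2 (-0.09), Ears2 (-0.08) and Rars2 (-0.05) were not called by DESeq2 in the authors' deposited table.

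The direction of the weaker changes at 4 h rests on the scaling. The authors' edgeR columns lay 0.93 to 0.96 below the DESeq2 columns for the 36 members, and the median of all tested genes was -0.97 with edgeR and -0.04 with DESeq2 in the authors' deposited table. With edgeR 5 members (13.9%) rose, against 13.5% of all genes, and 30 (83.3%) fell, against 50.1% of all genes, in the authors' deposited table. The 5 were Wars (2.47), Rars (1.65), Kars (0.76), Farsa (0.57) and Aars (0.24) in the authors' deposited table. Cars, Gars, Hars, Lars, Tars, Yars, Lars2 and Yars2 turned from positive to negative with edgeR, which called all but Yars2 lower, and in the authors' deposited table the 19 members that fell with DESeq2 were called lower by both.

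**Figure D2:**
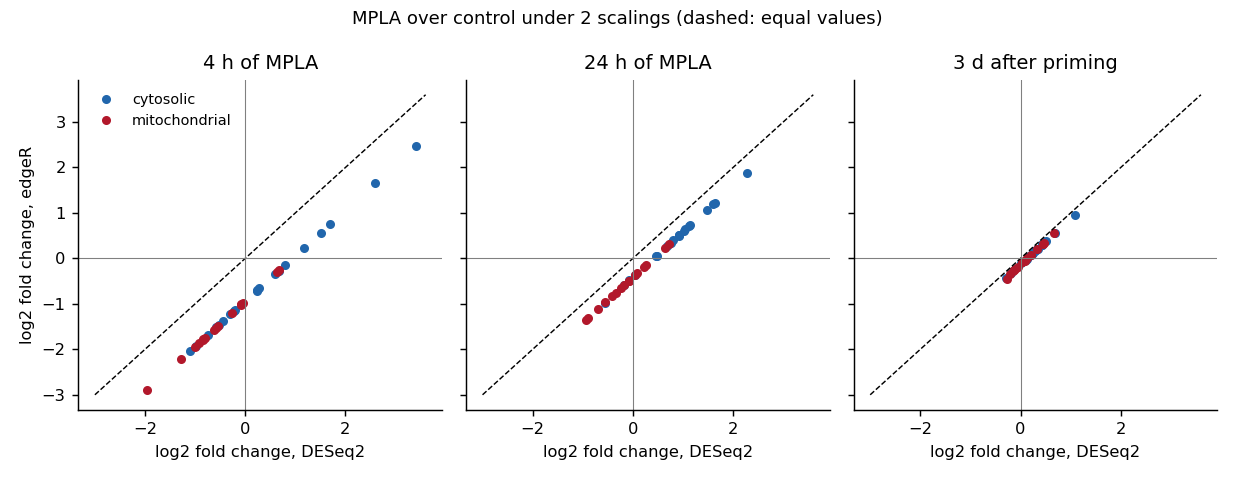
Log2 fold change of MPLA over control for the 36 members with DESeq2 (horizontal axis) and edgeR (vertical axis) at each time, with cytosolic members in blue, mitochondrial ones in red and equal values on the dashed line. The points run parallel to the line, about 0.94 below it at 4 h, 0.41 at 24 h and 0.13 at 3 d.

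After 24 h most cytosolic synthetases were higher than in the controls, led by the enzyme for alanine. In the authors' deposited table for 24 h, 16 of the 20 cytosolic members rose, 3 fell and Dars (0.04) was not called. The mitochondrial members split into 3 that rose, 6 that fell and 7 that were not called in the authors' deposited table. Over all 36 members, 19 (52.8%) rose, where 32.4% of all tested genes did, and 9 (25.0%) fell, where 32.2% did, in the authors' deposited table. The median was 0.91 for cytosolic members, -0.13 for mitochondrial members and -0.05 for all tested genes in the authors' deposited table.

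Aars (ENSMUSG00000031960 on chromosome 8, 111033144 to 111057664, GRCm38) stood 4.86-fold above the controls at 24 h (log2 2.28), and here too the authors' deposited table has a DESeq2 adjusted p below the smallest number stored. Exons of Exosc6, a gene on the same strand, cover 14.3% of its exonic bases in the GENCODE M21 annotation, and how reads there were counted is not stated, so its value is uncertain. Cars rose by 1.63 (DESeq2 adjusted p = 3.80e-135), Rars by 1.60 and Wars by 1.48 in the authors' deposited table. Tars (1.14), Gars (1.13), Kars (1.05) and Eprs (1.01) were the others at least 2-fold higher there. Yars, Sars, Hars, Mars, Lars, Farsa, Iars and Farsb rose by less, with log2 changes between 0.46 and 0.92 in the authors' deposited table. Iars shares 7.15% of its 50-base windows with Gm4849 in that annotation.

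The cytosolic genes that fell at 24 h were Qars (-0.56), Vars (-0.17) and Nars (-0.07, DESeq2 adjusted p = 0.0438) in the authors' deposited table. Sars had -1.09 at 4 h and 0.92 at 24 h, Mars -0.75 and 0.81, and Eprs -0.29 and 1.01, each called lower at 4 h and higher at 24 h in the authors' deposited tables. Farsb (-0.45 and 0.46) and Iars (-0.23 and 0.48) were called in the same directions in the authors' deposited tables. With edgeR Sars (-2.03 and 0.50), Mars (-1.69 and 0.40) and Eprs (-1.23 and 0.60) kept both calls, while Farsb and Iars were lower at 4 h and not called at 24 h, in the authors' deposited tables. Both comparisons use the same 3 controls and each table was scaled on its own, so the difference between times was not tested.

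At 24 h the authors' deposited table had the mitochondrial genes Ears2 (0.72), Yars2 (0.64) and Rars2 (0.23) higher. Vars2 (-0.94), Nars2 (-0.89), Wars2 (-0.69), Tars2 (-0.55), Lars2 (-0.42) and Hars2 (-0.24) fell in the authors' deposited table. The 7 not called, Pars2 (0.26), Iars2 (0.09), Fars2 (0.05), Aars2 (-0.08), Sars2 (-0.08), Cars2 (-0.17) and Mars2 (-0.33), had DESeq2 adjusted p-values between 0.109 and 0.70 in the authors' deposited table. With edgeR 15 members (41.7%) rose, against 16.2% of all genes, and 17 (47.2%) fell, against 41.8% of all genes, in the authors' deposited table. Of these 14 higher and 4 lower were cytosolic, and 1 higher and 13 lower were mitochondrial, in the authors' deposited table.

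**Figure D3:**
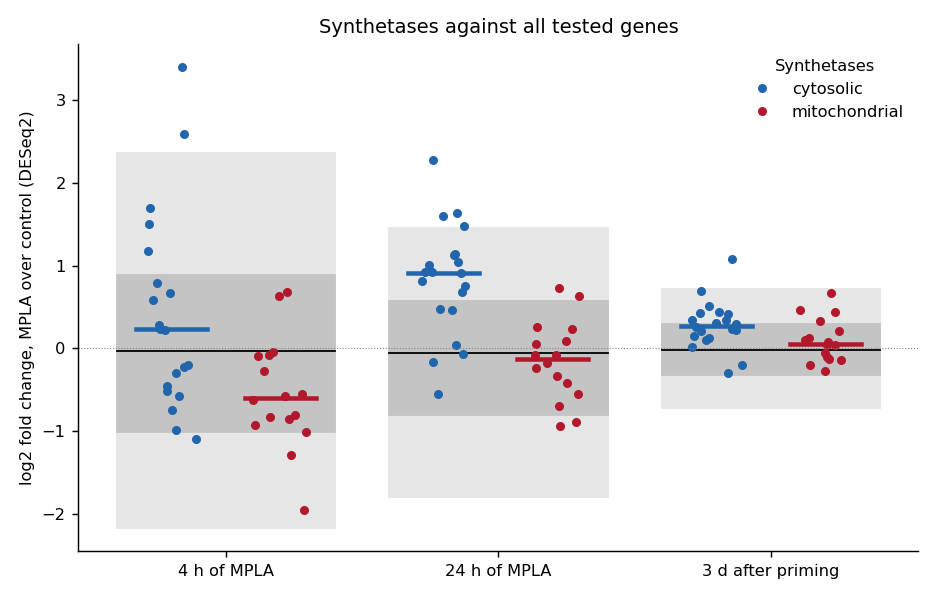
Log2 fold change of MPLA over control (DESeq2, vertical axis) of cytosolic (blue) and mitochondrial (red) synthetases at each time, 1 point a gene, with the median of each group as a coloured bar. Dark grey spans the middle of all tested genes (25th to 75th percentile), light grey the 10th to 90th, and the black line is their median; at 24 h the cytosolic median (0.91) lies above the dark band and the mitochondrial median (-0.13) within it.

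At 3 d after priming the changes were smaller and Aars remained the highest. In the authors' deposited table for 3 d, 21 members (58.3%) rose and 2 (5.56%) fell, where 29.5% and 25.8% of all tested genes did. The authors' deposited table had 16 cytosolic members higher and 2 lower, at a median of 0.27. Of the mitochondrial ones 5 rose and 0 fell with DESeq2, at a median of 0.06, while the authors' deposited table had 1 lower at an unadjusted DESeq2 p under 0.05, and 4 by its edgeR columns. At an unadjusted DESeq2 p under 0.05, 22 of the 36 members were higher and 3 lower in the authors' deposited table. No count over all genes was made at that threshold.

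Aars was 2.11-fold higher at 3 d (1.08, DESeq2 adjusted p = 1.79e-134) in the authors' deposited table and was the member that passed 2-fold. Rars (0.70), Aars2 (0.67), Yars (0.51), Tars2 (0.47) and Ears2 (0.44) followed in the authors' deposited table. Sars (0.44), Farsb (0.43), Tars (0.42), Dars (0.34), Wars (0.34), Lars (0.31), Mars (0.29), Iars (0.26), Cars (0.23), Hars (0.22), Gars (0.21), Farsa (0.15) and Eprs (0.13) also rose in the authors' deposited table. The mitochondrial genes Sars2 (0.33) and Iars2 (0.13) rose in the authors' deposited table. Iars2 has 24.2% of its exonic bases inside exons of genes on the opposite strand, among them Rab3gap2, and whether counting used strand is not stated. Qars (-0.30) and Nars (-0.20) fell, and both had also fallen at 4 h and at 24 h in the authors' deposited tables. Kars (0.10) and Vars (0.02) were not called at 3 d in the authors' deposited table, nor were Cars2, Fars2, Hars2, Lars2, Mars2, Nars2, Pars2, Rars2, Vars2, Wars2 and Yars2, whose log2 changes ran from -0.28 to 0.21.

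Wars, the highest member at 4 h with 3.40, had 1.48 at 24 h and 0.34 at 3 d, while Aars had 1.17, 2.28 and 1.08, in the authors' deposited tables. With edgeR 14 members (38.9%) rose at 3 d, against 15.5% of all genes, and 6 (16.7%) fell, against 27.7% of all genes, in the authors' deposited table. By the baySeq error rate 11 rose and 0 fell at 3 d in the authors' deposited table. Of all 23248 genes with a row at 3 d, 2697 were higher and 1126 lower by that rate.

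Cytosolic and mitochondrial enzymes for the same amino acid could be set side by side in 17 pairs, in which Eprs is paired with both Ears2 and Pars2 and Fars2 with both Farsa and Farsb. At 24 h the cytosolic enzyme had the higher log2 change in all 17 pairs of the authors' deposited table, by a median of 1.00 and a range of 0.29 to 2.36. It was higher in 13 pairs at 4 h (median difference 0.99) and in 14 at 3 d (median difference 0.19) in the authors' deposited tables. Subtracting within a table removes its scaling, and edgeR gave the same counts, 13, 17 and 14 pairs. The pairs share genes and libraries, and no test was made of these differences.

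The widest gap was between Wars (3.40) and Wars2 (-0.27) at 4 h, and at 24 h between Aars (2.28) and Aars2 (-0.08), in the authors' deposited tables. Hars (0.59) and Hars2 (-0.55) had opposite signs at 4 h in the authors' deposited table, although the genes lie head to head on chromosome 18 and their annotated ends overlap by 198 bases. With edgeR both were negative at 4 h, Hars at -0.35 and Hars2 at -1.49 in the authors' deposited table. The mitochondrial enzyme had the higher change at 4 h for serine (Sars -1.09, Sars2 -0.09), tyrosine (Yars 0.24, Yars2 0.68), leucine (Lars 0.23, Lars2 0.63) and glutamate (Eprs -0.29, Ears2 -0.08) in the authors' deposited table.

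**Figure D4:**
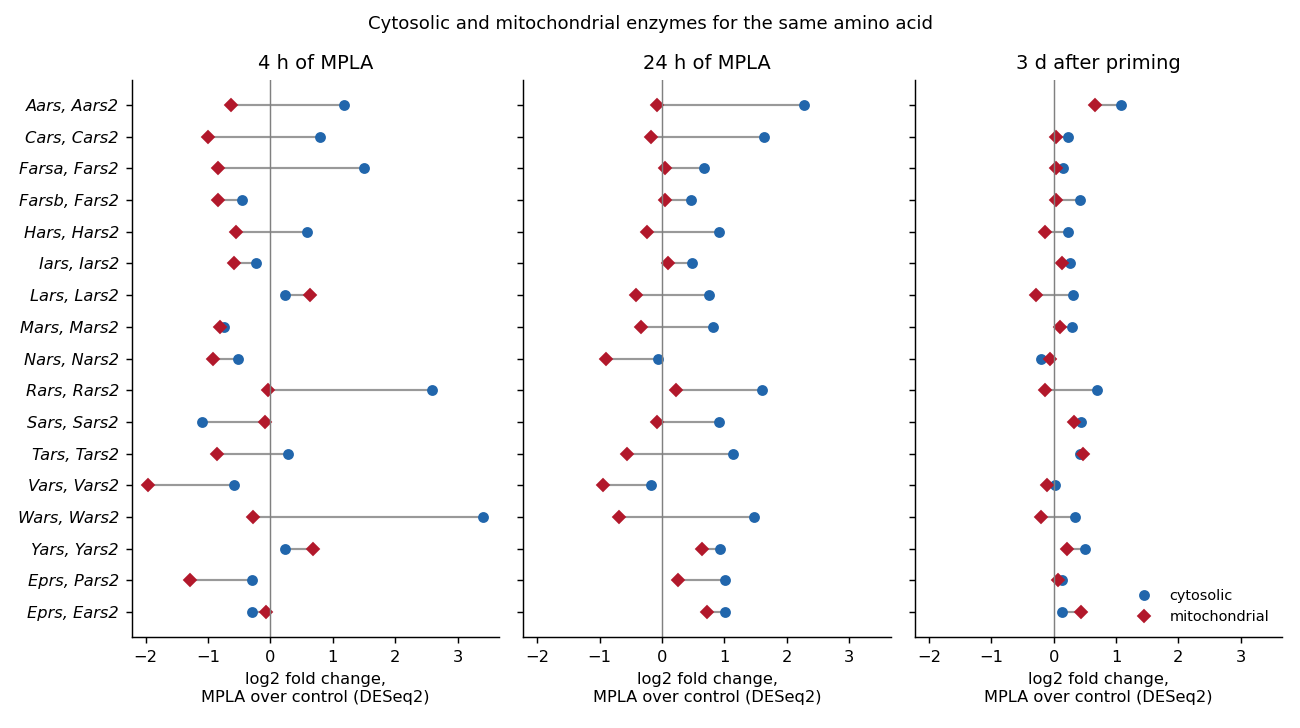
Log2 fold change of MPLA over control (DESeq2, horizontal axis) for 17 pairs of a cytosolic (blue circle) and a mitochondrial (red diamond) synthetase that charge the same amino acid, 1 panel a time. At 24 h every circle lies right of its diamond; at 3 d the gaps run from -0.32 to 0.84.

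The 8 enzymes of the multisynthetase complex (Dars, Eprs, Iars, Kars, Lars, Mars, Qars, Rars) did not move as a block. At 4 h Rars, Kars and Lars rose and the other 5 fell, with a range of -0.99 to 2.59 in the authors' deposited table, where edgeR had 2 higher and 6 lower, Lars among the lower. The 37.5% that rose at 4 h is near the 31.8% of all tested genes, and the 62.5% that fell compares with 31.0%. By edgeR 25% rose and 75% fell at 4 h, against 13.5% and 50.1% of all genes. At 24 h 6 rose, Qars fell and Dars was not called, and at 3 d 6 rose, Qars fell and Kars was not called, in the authors' deposited tables. That is 75% higher at both times, against 32.4% and 29.5% of all tested genes, and 12.5% lower, against 32.2% and 25.8%. The 12 cytosolic members outside the complex gave 8 that rose and 4 that fell at 4 h, 10 and 2 at 24 h, and 10 and 1 at 3 d in the authors' deposited tables (66.7%, 83.3% and 83.3% higher, 33.3%, 16.7% and 8.33% lower, against the same shares of all genes). Among the scaffold genes Eef1e1 rose 3.95-fold at 4 h and 2.84-fold at 24 h in the authors' deposited tables. At these times Aimp1 had log2 changes of -0.10 and 0.03 and Aimp2 of -0.30 and 0.16, without a call there. At 3 d Aimp1 fell (-0.22), and Eef1e1 (0.25) and Aimp2 (0.18) were not called in the authors' deposited table. With edgeR the authors' deposited tables had Aimp1 and Aimp2 lower at both 4 h and 24 h.

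Partners of mitochondrial charging were read from a fixed list with 5 measured genes. Gatc and Gatb, subunits of the amidotransferase that makes glutaminyl-tRNA in mitochondria, fell at 4 h (-2.33 and -1.04) and 24 h (-0.38 and -0.34) in the authors' deposited tables. At 3 d Gatb was still lower (-0.29) and Gatc was not called (0.02). Qrsl1, the catalytic subunit of that enzyme, was not called at 4 h (-0.15) and rose at 24 h (0.82) and 3 d (0.59) in the authors' deposited tables. Trnt1, which adds the CCA end to tRNAs of both compartments, rose at all 3 times (1.48, 0.97 and 0.16) in the authors' deposited tables. With edgeR Trnt1 was not called at 3 d (0.03), and Qrsl1 was lower at 4 h (-1.09).

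Atf4 rose at all 3 times, by 1.35 at 4 h, 2.01 at 24 h and 0.33 at 3 d in the authors' deposited tables, and was higher with edgeR too (0.41, 1.60 and 0.20). Of 13 cytosolic synthetases listed as ATF4-linked (Aars, Cars, Eprs, Gars, Iars, Lars, Mars, Nars, Sars, Tars, Vars, Wars, Yars), 7 rose and 6 fell at 4 h, 11 and 2 at 24 h, and 11 and 1 at 3 d in the authors' deposited tables. The other 7 cytosolic synthetases gave 4 that rose and 3 that fell at 4 h, 5 and 1 at 24 h, and 5 and 1 at 3 d in the authors' deposited tables. With edgeR the authors' deposited tables gave 2 of the 13 higher and 11 lower at 4 h, 10 and 2 at 24 h, and 8 and 1 at 3 d, and of the other 7 they gave 3 and 4, 4 and 2, and 3 and 1. Of the 13, 53.8%, 84.6% and 84.6% were higher with DESeq2, against 31.8%, 32.4% and 29.5% of all tested genes, and 46.2%, 15.4% and 7.69% lower, against 31.0%, 32.2% and 25.8%. Of the other 7, 57.1%, 71.4% and 71.4% were higher and 42.9%, 14.3% and 14.3% lower with DESeq2. With edgeR at 4 h the 15.4% of the 13 that were higher is near the 13.5% of all genes, and 84.6% were lower, against 50.1%. At 24 h and 3 d edgeR had 76.9% and 61.5% of the 13 higher, against 16.2% and 15.5% of all genes. The edgeR shares lower then were 15.4% and 7.69%, against 41.8% and 27.7%. Of the other 7, edgeR had 42.9%, 57.1% and 42.9% higher and 57.1%, 28.6% and 14.3% lower, against the same shares of all genes. The medians of the 13 and of the other 7 at 24 h were 0.92 and 0.68 in the authors' deposited table, and the difference was not tested. Of the 5 genes with the printed core, Aars, Gars, Tars and Yars rose at all 3 times with DESeq2 in the authors' deposited tables. Iars fell at 4 h (-0.23) and rose at 24 h (0.48) and 3 d (0.26) there. With edgeR Aars was the member of these 5 that was higher at 4 h, and Gars (0.08) was not called at 3 d.

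Of 19 other ATF4 target genes, 9 rose and 8 fell at 4 h, 13 rose and 5 fell at 24 h, and 11 rose and 4 fell at 3 d in the authors' deposited tables. The edgeR columns of the authors' deposited tables gave 7 higher and 10 lower, 12 and 6, and 10 and 4. That is 36.8%, 63.2% and 52.6% higher, against 13.5%, 16.2% and 15.5% of all genes. The edgeR shares lower were 52.6%, 31.6% and 21.1%, against 50.1%, 41.8% and 27.7%, so that at 4 h is near the background. With DESeq2 47.4%, 68.4% and 57.9% were higher, against 31.8%, 32.4% and 29.5% of all tested genes. The shares lower were 42.1%, 26.3% and 21.1%, against 31.0%, 32.2% and 25.8%, so those at 24 h and 3 d are near the background. The DESeq2 medians were 0.45, 1.38 and 0.49, where those of all tested genes were -0.04, -0.05 and -0.02 in the authors' deposited tables. Slc7a11, the cystine carrier, was highest at 24 h (5.04), followed by Nupr1 (3.26), and Vldlr (-3.97) and Shmt2 (-0.54) were lowest in the authors' deposited table. At 4 h Slc7a11 (4.42) and Nupr1 (4.02) were highest and Sesn2 (-2.28) and Trib3 (-2.07) lowest in the authors' deposited table. Trib3, an ATF4-induced pseudokinase, was 2.99 at 24 h there. Of the eIF2 kinases, Eif2ak2 (PKR, which senses double-stranded RNA) rose at all 3 times, by 3.92, 2.24 and 1.17, in the authors' deposited tables. Eif2ak3 (PERK, the kinase of endoplasmic reticulum stress) and Eif2ak4 fell at all 3 times, to -2.51 and -1.94 at 4 h, -1.22 and -0.62 at 24 h and -0.46 and -0.16 at 3 d in the authors' deposited tables.

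**Figure D5:**
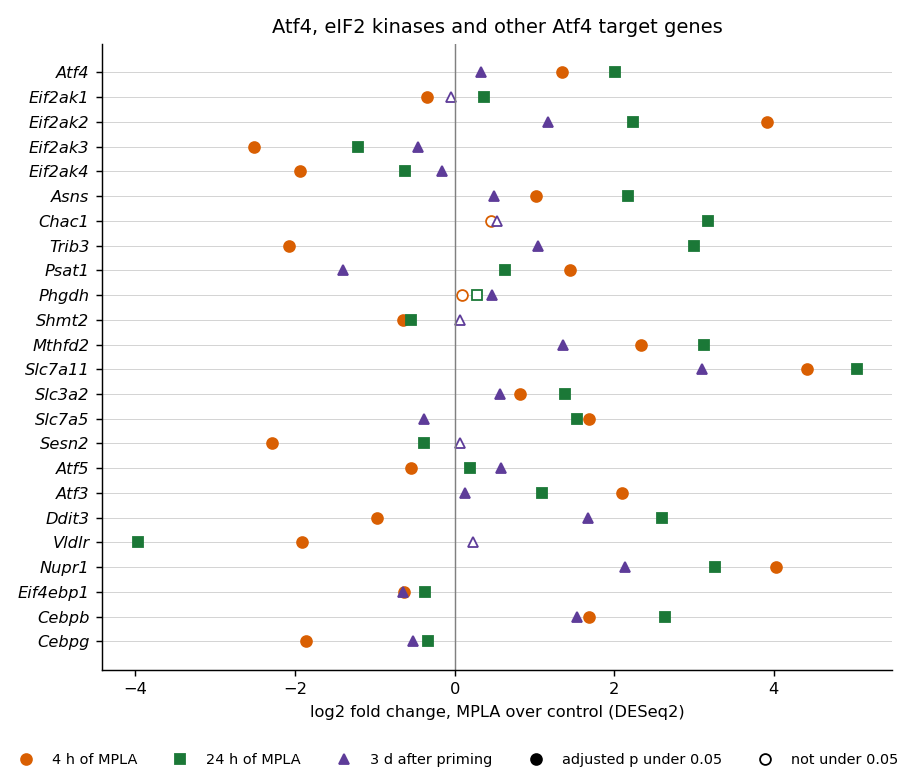
Log2 fold change of MPLA over control (DESeq2, horizontal axis) for Atf4, the 4 eIF2 kinases and 19 other ATF4 target genes, with circles for 4 h, squares for 24 h and triangles for 3 d, filled where the adjusted p was under 0.05. Slc7a11 reaches 5.04 at 24 h, and Trib3 lies at -2.07 at 4 h and 2.99 at 24 h.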

How the data were processed

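RNA-seq libraries from polyadenylated RNA, made with a stranded kit, were compared in 4 groups of 3. The submitters' processing notes name DESeq, DESeq2, edgeR, HTSeq, TopHat2 and bcl2fastq without a version, and build mm10. Annotation and counting settings are not given in the sources used here. The authors' tables hold, per the file headers, log2 fold changes with raw and adjusted p-values by DESeq2 and by edgeR, beside an unscaled log2 ratio and a baySeq score, read as an error rate. The deposited log2 values are control over MPLA and were turned here to MPLA over control, a direction settled from the order of the groups and from cytokine genes that lipid A induces.

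Here, members were counted at an adjusted p-value under 0.05 in the authors' DESeq2 column (Benjamini-Hochberg over each table, NA kept as not tested), with medians, percentiles and pair differences, in Python 3.11.15 with pandas 2.3.3. No model was refitted, since the tables hold no values per library, and depth per library is unknown. The adjustment and the implied standard errors were tested on simulated data. For the members the authors' DESeq2 value minus the authors' unscaled ratio, both deposited, was 1.14 to 1.19 at 4 h, 0.50 to 0.53 at 24 h and -1.15 to -1.04 at 3 d, near the medians of all tested genes (1.15, 0.51 and -1.08). Exon overlaps and shared 50-base windows come from GENCODE M21 (GRCm38). Alternatives were the authors' deposited edgeR columns, baySeq, all 3 methods together, no NA filter, an adjusted p under 0.01, genes at 0 left out, and medians subtracted. Of genes outside the members, those named are the 2 highest and 2 lowest of a list and Atf4, apart from a few that were chosen after their values were seen (Trib3 at 24 h, Eif2ak kinases, scaffold and partner genes, cell type markers). The members and lists were chosen with earlier results of these data known.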

Additional observations from a re-analysis of the deposited data

How the results depend on the processing

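With edgeR 5 members rose and 30 fell at 4 h (13 and 19 with DESeq2), 17 fell at 24 h (9) and 6 fell at 3 d (2). Calls by all 3 methods gave 5 higher at 4 h, and 11 higher and 0 lower at 3 d, where DESeq2 had 21 and 2. baySeq alone also gave 11 and 0 at 3 d, where it gave 2697 and 1126 of all 23248 genes with a row. DESeq2 at an unadjusted p under 0.05 gave 22 and 3 at 3 d, and all genes were not counted at that threshold. Leaving out the NA filter and an adjusted p under 0.01 kept every such count within 1.5 times. Leaving out genes at 0 could not change these counts, since none of the 36 members was listed at 0. Subtracting the median reused the DESeq2 calls, so it could change a sign but not a call, and no member changed sign. With edgeR the sign turned at 4 h for Cars (-0.14), Gars (-0.27), Hars (-0.35), Lars (-0.71), Tars (-0.66), Yars (-0.70), Lars2 (-0.31) and Yars2 (-0.26). It turned at 24 h for Dars (-0.37), Fars2 (-0.36), Iars2 (-0.32), Pars2 (-0.15) and Rars2 (-0.18), and at 3 d for Eprs (-0.0034), Kars (-0.025), Vars (-0.11), Cars2 (-0.088), Fars2 (-0.089), Iars2 (-0.0021), Mars2 (-0.051) and Pars2 (-0.048). With the edgeR values set relative to the median of all tested genes, an alternative chosen after seeing the data, no member turned. DESeq2 and edgeR values differ by a nearly constant amount within each comparison. This setting therefore nearly restores the DESeq2 values and is no independent check of direction. Over all tested genes, edgeR gave 2949 higher and 10965 lower at 4 h (5579 and 5438 with DESeq2), 3551 and 9154 at 24 h (5331 and 5293), and 6450 lower at 3 d (3892). Over all tested genes at 3 d baySeq gave 2697 higher and 1126 lower (4456 and 3892 with DESeq2), and all 3 methods gave 2909 higher at 4 h, 3418 higher at 24 h, and 2635 higher and 1086 lower at 3 d. No paired analysis was possible because the tables hold no values per library, and for the same reason no library could be left out. Depth per gene is unknown, which limits what weak changes show.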

Other observations

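Cytosolic elongation factors, which bring charged tRNA to the ribosome and move it along, went lower while most cytosolic synthetases were higher at 24 h. At 24 h the authors' deposited table had all 5 lower, Eef1b2 (-0.85) and Eef1a1 (-0.79) most, at a median of -0.73, where 32.2% of all tested genes were lower. At 4 h Eef1a1 (0.34), Eef1g (0.27) and Eef1b2 (0.19) rose and Eef2 (-0.41) and Eef1d (-0.24) fell with DESeq2 in the authors' deposited table, whose edgeR columns had all 5 lower, where 50.1% of all genes were. Of 8 mitochondrial translation factors 3 rose and 0 fell at 24 h with DESeq2, among them Gfm1 (0.66), in the authors' deposited table. Its edgeR columns had 1 higher and 4 lower, and at an unadjusted DESeq2 p under 0.05 0 were lower. The 37.5% higher with DESeq2 is near the 32.4% of all tested genes, and the 12.5% higher with edgeR near 16.2%. The 50% lower with edgeR compares with 41.8% of all genes.

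Most amino acid carriers on the list were higher at 24 h. Of 12 carriers 7 rose and 3 fell at 4 h, 9 and 3 at 24 h, and 7 and 4 at 3 d in the authors' deposited tables, with medians of 0.85, 1.41 and 0.43, and with edgeR 5 and 5, 9 and 3, and 6 and 4. With DESeq2 58.3%, 75% and 58.3% were higher, against 31.8%, 32.4% and 29.5% of all tested genes. The DESeq2 shares lower, 25.0%, 25.0% and 33.3%, were near the 31.0%, 32.2% and 25.8% of all tested genes. The edgeR shares higher were 41.7%, 75% and 50%, against 13.5%, 16.2% and 15.5% of all genes. Those lower were 41.7%, 25% and 33.3%, against 50.1%, 41.8% and 27.7%. At 24 h Slc7a2, a carrier of arginine and lysine, was highest (6.11), followed by Slc7a11 (5.04), and the authors' deposited table had Slc43a2 (-1.56) and Slc1a5 (-1.25) lowest. Among the 12 carriers, 3, Slc7a5, Slc7a11 and Slc3a2, are also on the list of ATF4 targets.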
